A study of Arabidopsis thaliana with 10 samples.

Results

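Pistils of Arabidopsis thaliana collected 0.5 hours after pollination (0.5 HAP) were compared with unpollinated pistils, by gene class and function. The comparison takes 4 of the 10 arrays of the series, the 2 titled for pistils at 0.5 HAP and the 2 titled for unpollinated pistils, and all 22745 probe sets that are not controls and have a value. Both groups were wild-type plants of ecotype Columbia whose flowers had been emasculated 24 hours before pollination, so both had been without anthers for that time. Each replicate was a pool of 20 pistils from at least 10 plants, so the spread behind each p-value is one between pools. It was estimated jointly over the 5 groups of the series, and not from these 2 groups alone. Pollinated pistils were measured together with the pollen and pollen tubes on them. There was no group handled in the same way without pollen, so pollen, handling and elapsed time cannot be told apart, nor can fewer cells of a type and less RNA per cell. The other arrays, 2 each of pistils at 3.5 HAP, pistils at 8 HAP and ovules dissected from unpollinated pistils, entered the fit and give the later levels.

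A pollen grain that lands on a receptive stigma takes up water through the papilla cells, germinates, and sends a tube through the papilla wall into the transmitting tract of the style, which leads it to the ovules. Mature pollen is dry and carries stored transcripts, many for enzymes that loosen or rebuild pectin, for receptor kinases and for peptides of the RALF kind, which act on the growing tube. On the female side, calcium, reactive oxygen and secreted peptides act as early signals in the papillae, and the style supplies sugars and secreted proteins to the tube.

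The arrays gave linear intensities, with medians between 252 and 272 over all 10. One library differed from the others in RNA quality. For unpollinated replicate 2, the 3' actin control exceeded the 5' one by 2.96 on the log2 scale, against 1.93 to 2.55 on the other 9 arrays, and the 5' control was at 545, against 1022 or more elsewhere. The GAPDH and ubiquitin controls also had their highest 3' to 5' differences on that array, at 0.784 and 0.786. The other 9 arrays reached at most 0.682 and 0.678. An older set of actin controls, at 3.33 on unpollinated replicate 2 and 3.33 to 3.79 in all, did not set it apart. The replicate difference had an SD of 0.125 (log2) at 0.5 HAP and 0.230 in unpollinated pistils. Values up to 136.5, the 95th percentile of 27 bacterial control probe sets, are called background level here, and 28.7% of probe sets had both group means within it. Differences were taken on log2(value + 16), which understates the change of dim genes, and a fold with 1 mean at background level has no exact size.

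At 0.5 HAP 30.2% of the probe sets changed, 15.5% higher and 14.7% lower, by limma with Benjamini-Hochberg adjustment at 0.05. The arrays of the groups did not overlap for any of the 6880 probe sets called, so a lack of overlap follows from the call and is no further support for a named gene. Most of these differences were small. Of the probe sets called, 6193 differed by less than 2-fold, with a median fold of 1.38, and 2.01% of all probe sets were at least 2-fold higher and 1.01% at least 2-fold lower. Among the 13355 genes with a name in the tables used, counted by their brightest probe set, 28.3% changed: 13.8% rose, 1.78% by at least 2-fold, and 14.6% fell, 0.869% by at least 2-fold, so a class with about 1 member in 7 called in each direction resembles the genes as a whole. The median log2 difference of these genes was -0.03. Without 0.5 HAP replicate 1 or 2 the probe sets called numbered 3723 and 4047. Classes are described below by their counts and medians, without a test of the class.

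The genes of the pollen list were higher at 0.5 HAP. Of the 16 measured, 12 rose and 0 fell, with a median log2 difference of 0.77, and 7 of them rose at least 2-fold. The summed level of the list was 9706 and 9427 at 0.5 HAP, against 1869 and 2097 in unpollinated pistils. A large part of this sum came from AT5G45880, at 4081 and 3973 at 0.5 HAP, against 424 and 582 in unpollinated pistils. Of the 16 genes, 12 had an unpollinated mean within the background level, and 7 had a 0.5 HAP mean within it too. Of the 12 rises, 4 had both group means within it. TUA1, an alpha-tubulin strong in pollen, stood at 821 and 736 at 0.5 HAP and at 500.4 and 452 in unpollinated pistils. It was thus well above background in both groups (1.61-fold, adjusted p = 0.000662). AT59, a pectate lyase gene of pollen, had 359 and 339.8 at 0.5 HAP, against 39.6 and 46.2 in unpollinated pistils. ANX2, one of a pair of receptor kinases that keep the pollen tube from bursting, had 154 and 150.4 at 0.5 HAP, against 31.2 and 43.6 in unpollinated pistils. Both genes were at background level before pollination and clear of it on both arrays afterwards. AT5G07430, on the list by its locus, had 669 and 651 at 0.5 HAP and 71.5 and 96.6 in unpollinated pistils, a 6.81-fold rise. The sperm gene MGH3, a histone variant, had 61.9 and 54.2 at 0.5 HAP and 50.1 and 57.7 in unpollinated pistils, all within the background level (adjusted p = 0.618). Of the 2 measured genes of anthers and the pollen coat, AT5G07230 rose to 125 and 104, against 77.5 and 87.3 in unpollinated pistils, within the background level, and lost its call without 0.5 HAP replicate 1 or unpollinated replicate 1. The other, AT1G75920, had 175 and 148 at 0.5 HAP and 194 and 208 in unpollinated pistils. It fell by 0.29 on the log2 scale (adjusted p = 0.0387), a call lost without 0.5 HAP replicate 2 or unpollinated replicate 2.

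Secreted peptides of the RALF family moved in both directions. Of 11 measured, 3 rose and 3 fell, and the 3 that rose did so with each of the 4 arrays left out in turn. RALFL26 had 821 and 839 at 0.5 HAP, against 115 and 157 in unpollinated pistils (5.62-fold, log2 2.49, SE 0.128, adjusted p = 2.45e-07). RALFL25 had 214 and 229 at 0.5 HAP and 47.5 and 57.7 in unpollinated pistils, and RALFL18 had 183 and 201 at 0.5 HAP, against 92.9 and 87.0 in unpollinated pistils. All 3 had unpollinated means at background level. RALFL22 ran the other way, at 275 and 276 at 0.5 HAP, against 452 and 409 in unpollinated pistils (log2 -0.61, adjusted p = 0.000537). RALFL33, a ligand of the receptor kinase FERONIA in stigmas, had 1012 and 1060.3 at 0.5 HAP and 1475 and 1217 in unpollinated pistils, and RALFL28 had 329.9 and 321 at 0.5 HAP, against 375 and 425 in unpollinated pistils. The calls of both were lost without either 0.5 HAP array, which leaves 1 RALF gene that fell.

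Cell wall enzymes also divided by family member. Of 15 endoglucanases of family GH9, which cut beta-1,4-glucans, 6 rose and 2 fell, and 1 fell without either 0.5 HAP array or without unpollinated replicate 2. GH9A4 had 179 and 189.6 at 0.5 HAP, against 41.5 and 39.7 in unpollinated pistils (3.54-fold, adjusted p = 1.42e-06). GH9B8 had 451 and 425 at 0.5 HAP, against 109.7 and 151 in unpollinated pistils (3.14-fold), while GH9B18 was at 197 and 208 at 0.5 HAP, against 274 and 279 in unpollinated pistils (log2 -0.42). The first pair was at background level before pollination, and GH9B18 lay above it in both groups. Among the few pectin methylesterase genes measured, ATPMEPCRB had 1211 and 1195 at 0.5 HAP and 642 and 465 in unpollinated pistils, a 2.17-fold rise. PMEPCRF of the same family had 877 and 895 at 0.5 HAP, against 1506 and 1532 in unpollinated pistils, and fell by 0.77 on the log2 scale.

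Expansins, which loosen walls without cutting them, fell in 3 of 18 cases and rose in 3, a count of rises that dropped to 1 without 0.5 HAP replicate 1 and reached 5 without unpollinated replicate 1. Among all named genes 14.6% fell and 13.8% rose, so the expansin counts resemble the genes as a whole. EXPA16 had 276 and 239.9 at 0.5 HAP, against 605 and 554 in unpollinated pistils (2.17-fold lower, adjusted p = 0.000141 by limma). EXPA8 had 199 and 213 at 0.5 HAP, against 422 and 452 in unpollinated pistils (2.04-fold lower). EXPB3, a beta-expansin, was higher, at 609 and 709 at 0.5 HAP and 416 and 423 in unpollinated pistils. All 3 lay above background on each of the 4 arrays. Of 10 xyloglucan enzymes 1 rose and 2 fell. XTH16 fell to 906 and 995 at 0.5 HAP, against 2593 and 1646 in unpollinated pistils, where the replicates lay far apart (log2 -1.11, SE 0.209). XTH18 rose 1.52-fold and XTH19 fell 1.48-fold. CSLA01, a glucomannan synthase, had 312 and 309 at 0.5 HAP, against 786 and 749 in unpollinated pistils, and fell 2.40-fold (adjusted p = 2.04e-06). Trichome birefringence-like proteins, a family that adds acetyl groups to wall polysaccharides, fell in 5 of 23 cases and rose in 2. Without 0.5 HAP replicate 1 the counts were 3 and 0, and 0 rose without 0.5 HAP replicate 2 or unpollinated replicate 1. TBL36 was the lowest of them, at 1040.2 and 996 at 0.5 HAP, against 1942 and 1951 in unpollinated pistils (1.90-fold lower).

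**Figure D1:**
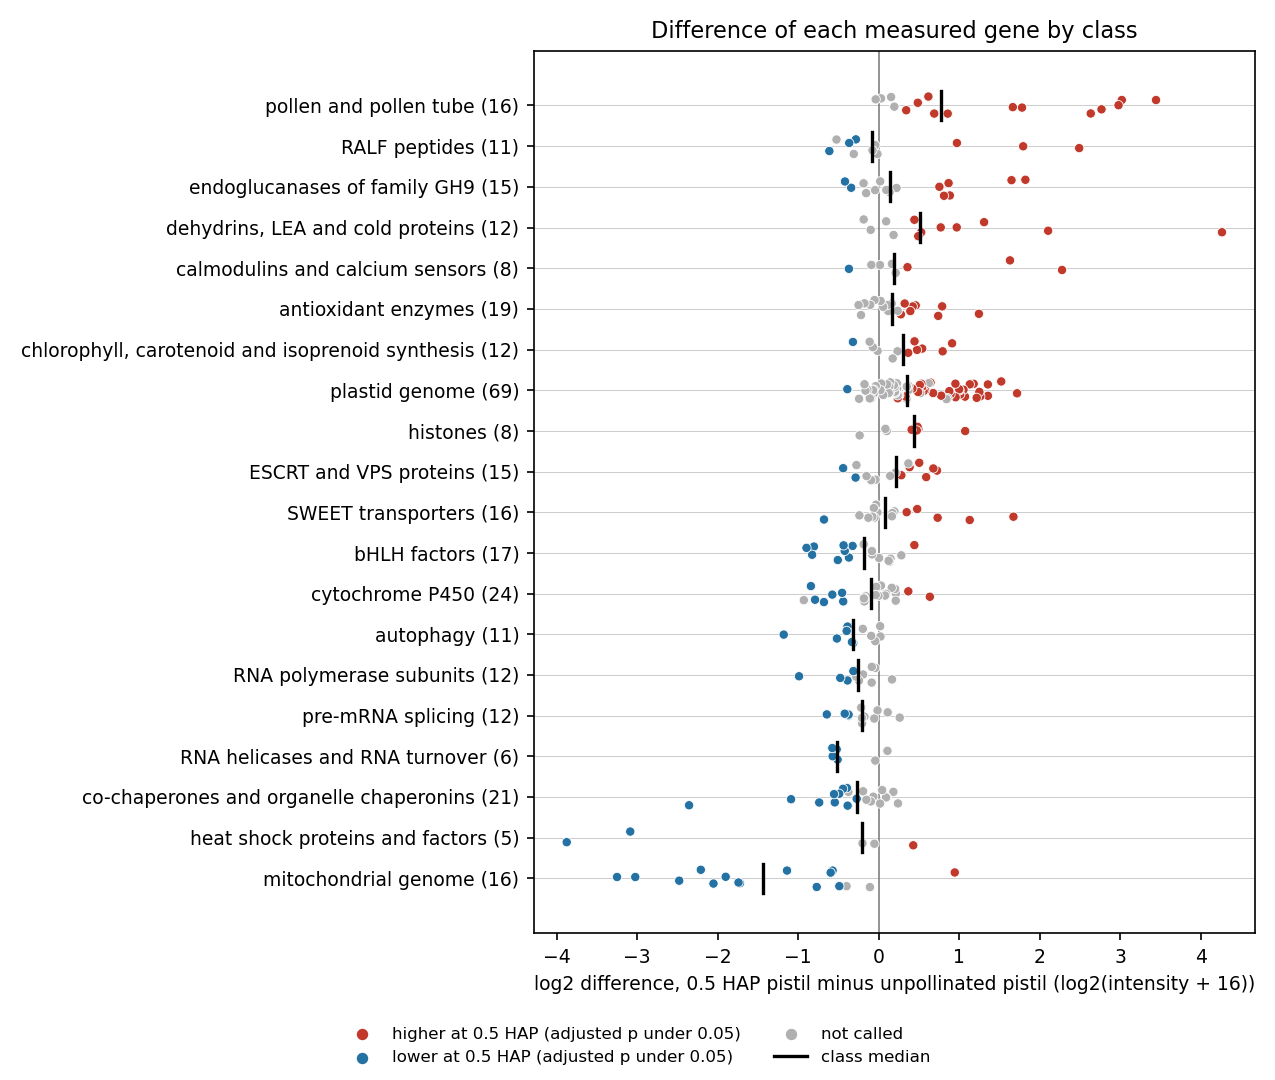
Log2 difference (0.5 HAP minus unpollinated) of every measured gene in the gene classes described, 1 row a class and 1 point a gene; coloured points passed limma at an adjusted p of 0.05, grey points did not, and the bar marks the class median. The pollen and dehydrin rows reach furthest to the right, and the rows of the heat shock proteins and of the mitochondrial genome reach furthest to the left.

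Among genes of the actin cytoskeleton, which carries vesicles along the pollen tube, PLIM2a, an actin-bundling LIM protein of pollen, had 334 and 345 at 0.5 HAP, against 110.1 and 127 in unpollinated pistils (2.64-fold, adjusted p = 5.49e-05). WLIM2b, its relative in vegetative tissue, had 1971 and 1999 at 0.5 HAP and 3412 and 2997 in unpollinated pistils (log2 -0.68). The myosin gene XIJ was at 134 and 142 at 0.5 HAP, against 224 and 244 in unpollinated pistils, and the actin-binding NET3A at 307 and 315 at 0.5 HAP, against 485 and 501 in unpollinated pistils. Both fell, by 0.70 and 0.64 on the log2 scale, in the fit. In the actin list of 12, 2 rose and 3 fell, and 1 rose without 0.5 HAP replicate 1. ACT11 was the third that fell, at 573 and 641 at 0.5 HAP, against 1148 and 787 in unpollinated pistils, a call lost without 0.5 HAP replicate 1 or unpollinated replicate 1. NET3A belongs to a separate list of NET proteins, of which 2 of 10 rose and 1 fell, while 0 rose without 0.5 HAP replicate 1 and 1 without each of the other 3 arrays in turn.

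Markers of the pistil itself did not move together. Of 9 measured genes of stigma, style and transmitting tract, 3 rose and 1 fell, and 2 fell without unpollinated replicate 1. ARPN, a plantacyanin of the transmitting tract, had 5003 and 4950.4 at 0.5 HAP, against 1446 and 1049 in unpollinated pistils (4.00-fold, adjusted p = 9.64e-07). SPT, a bHLH factor that shapes the style and septum, had 292 and 315 at 0.5 HAP and 561 and 539 in unpollinated pistils, and fell by 0.83 on the log2 scale. CES, a bHLH factor of the same list, was at 1799.5 and 1864 at 0.5 HAP, against 1994 and 1891 in unpollinated pistils (adjusted p = 0.587). ARPN, SPT and CES were above background on each of the 4 arrays, while 2 of the 9 genes had both group means within it. AT3G12000 of the same list had 481 and 410 at 0.5 HAP, against 99.6 and 201 in unpollinated pistils (2.91-fold). Its level in unpollinated replicate 1 was within the background level. Among 7 ovule and embryo sac genes 3 fell and 1, BAN, rose, a call lost without either 0.5 HAP array or without unpollinated replicate 2. EC1.2, a secreted protein of the egg cell, had 149 and 155 at 0.5 HAP, against 231 and 276 in unpollinated pistils, and AGL80, a MADS factor of the central cell, had 351 and 344 at 0.5 HAP, against 446 and 485 in unpollinated pistils. AGL61, the partner of AGL80, had 279.8 and 295 at 0.5 HAP and 379.6 and 338 in unpollinated pistils. The calls of EC1.2 and AGL80 held with any 1 array left out, and that of AGL61 was lost without either 0.5 HAP array or without unpollinated replicate 1. INO, a factor of the outer integument, was at 501 and 472 at 0.5 HAP, against 602 and 552 in unpollinated pistils (adjusted p = 0.0881), and the egg cell gene EC1.5 at 308 and 336 at 0.5 HAP, against 257 and 298 in unpollinated pistils (adjusted p = 0.151).

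Dehydrins and other cold and late embryogenesis proteins, hydrophilic proteins that protect membranes and proteins when water is short, formed a class with a large positive shift. Of 12 measured, 8 rose and 0 fell, with a median log2 difference of 0.51, and between 7 and 9 rose with 1 array left out. Of the 12, 4 had both group means within the background level, among them 2 of the 8 that rose. LTI30, a dehydrin that binds membranes, had 1099.8 and 1151 at 0.5 HAP, against 43.8 and 43.0 in unpollinated pistils, from background level. COR15A, a chloroplast protein of cold acclimation, had 2083 and 2001 at 0.5 HAP, against 447 and 478 in unpollinated pistils (4.30-fold, log2 2.10, SE 0.124). Its close copy COR15B had 3656 and 3615 at 0.5 HAP, against 1321 and 1608 in unpollinated pistils (2.48-fold, adjusted p = 1.59e-05). The dehydrin COR47 had 3379.6 and 3259.9 at 0.5 HAP, against 1833 and 1554 in unpollinated pistils. Of the 4 genes named here, 3 were already expressed well above background in unpollinated pistils. The later means of COR47 lay below that at 0.5 HAP. COR15A was not called between 0.5 and 3.5 HAP (log2 -0.13, adjusted p = 0.528 by limma) and was lower at 8 HAP. COR15A averaged 463 ± 21.9 in unpollinated pistils, 2042 ± 58.2 at 0.5 HAP, 1867 ± 203 at 3.5 HAP and 207 ± 41.3 at 8 HAP (SD, n = 2 each), and COR47 averaged 1693 ± 197, 3319.8 ± 84.6, 2059 ± 60.7 and 848 ± 19.3 in the same order. Transcription factors of the AP2/ERF family, some of which act in water stress, did not show such a shift: of 9 measured, 1 rose and 0 fell, and 1 fell without unpollinated replicate 1.

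Calmodulin-like calcium sensors, which relay transient calcium signals, rose in 3 of 8 cases and fell in 1. Of the 3 rises 1 had both group means within the background level. CML38 had 571 and 573 at 0.5 HAP, against 123 and 90.0 in unpollinated pistils (4.85-fold, adjusted p = 6.9e-07), and CML37 had 161 and 144 at 0.5 HAP, against 33.9 and 43.4 in unpollinated pistils (3.10-fold). Both were at background level in unpollinated pistils. CML43 had 171 and 169 at 0.5 HAP and 217 and 232 in unpollinated pistils, a fall lost without either 0.5 HAP array or without unpollinated replicate 2. CML38 was highest at 0.5 HAP: it averaged 106 ± 23.3 in unpollinated pistils, 572 ± 1.28 at 0.5 HAP, 167 ± 20.8 at 3.5 HAP and 150.5 ± 13.9 at 8 HAP (SD, n = 2 each). Among other calcium proteins, the IQD scaffold IQD23, which binds calmodulin, had 424 and 415 at 0.5 HAP, against 191 and 208 in unpollinated pistils (2.02-fold), and the glutamate receptor-like channel GLR3.3 had 345 and 370.1 at 0.5 HAP, against 498 and 565 in unpollinated pistils (log2 -0.55). GLR3.3 was the 1 gene called among 15 ion channels and cation exchangers, or 1 of 2 without unpollinated replicate 1.

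Of 5 measured jasmonate genes 2 rose and 1 fell, and 4 rose without unpollinated replicate 1. JMT, which makes methyl jasmonate, had 184 and 186 at 0.5 HAP, against 46.7 and 58.0 in unpollinated pistils (2.96-fold), and OPCL1, a peroxisomal ligase on the path to jasmonic acid, had 1198 and 1516 at 0.5 HAP, against 606 and 480.0 in unpollinated pistils (2.46-fold, adjusted p = 0.000158). The first was at background level before pollination and the second well above it. JRG21, a jasmonate-regulated gene, had 905 and 1049 at 0.5 HAP, against 1303 and 1332 in unpollinated pistils, a fall lost without 0.5 HAP replicate 1. Both rises of synthesis genes were called with each array left out. OPCL1 averaged 543 ± 89.0 in unpollinated pistils, 1357 ± 225 at 0.5 HAP, 537 ± 10.0 at 3.5 HAP and 759 ± 22.3 at 8 HAP (SD, n = 2 each), so the level at 3.5 HAP lay near that before pollination and the level at 8 HAP above it.

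**Figure D2:**
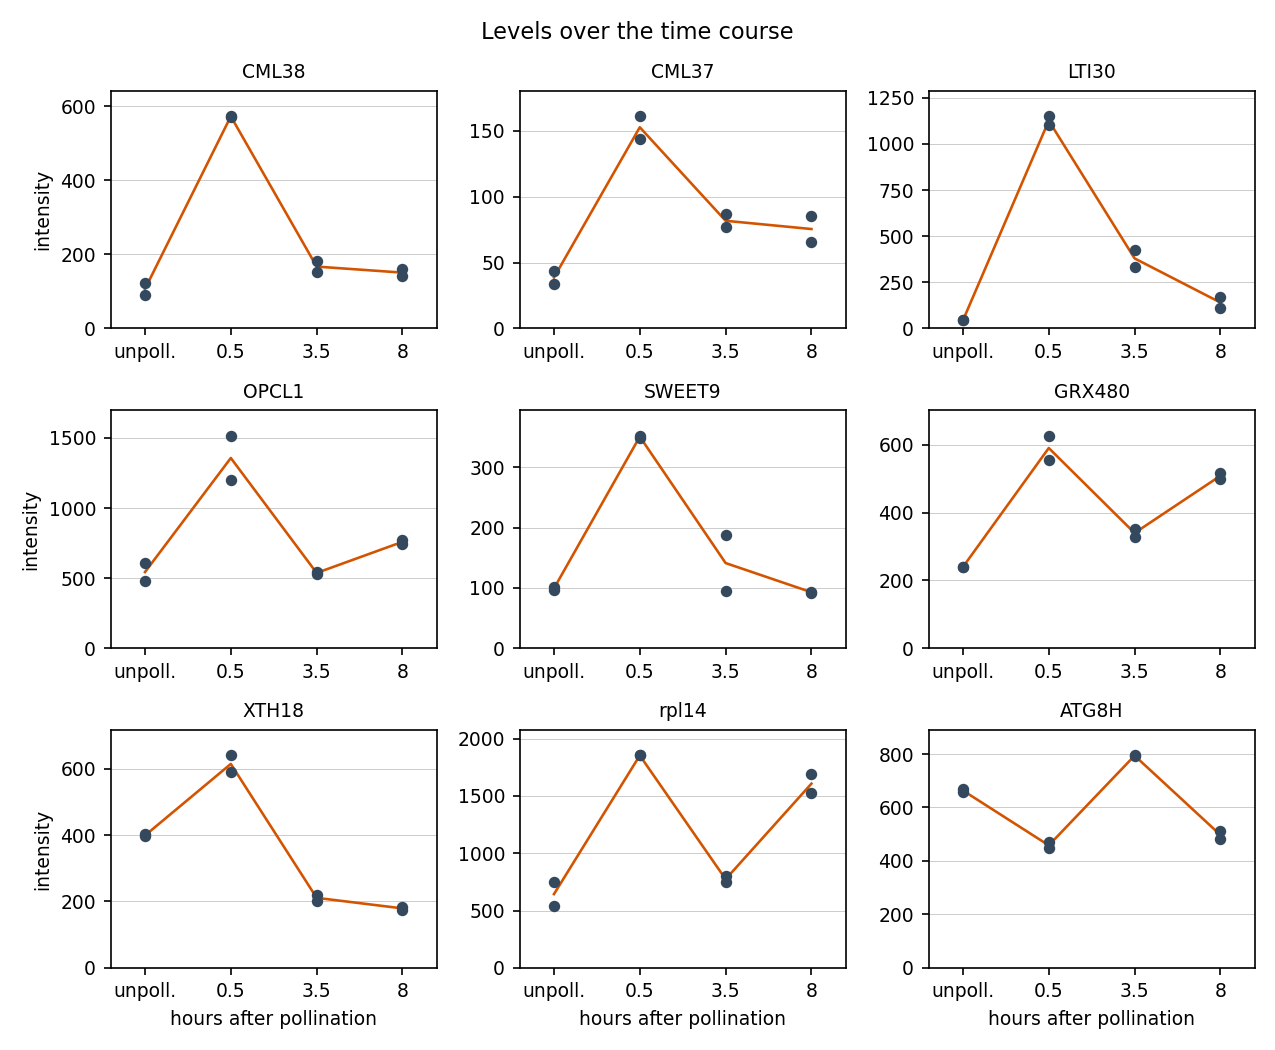
Level (linear intensity) in unpollinated pistils and at 0.5, 3.5 and 8 HAP for selected genes, 1 panel a gene, with both arrays as points and the mean as a line. In 8 of the 9 panels the 0.5 HAP mean is the highest of the 4, and in the panel of ATG8H it is the lowest.

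Co-chaperones and organelle chaperonins, which work with the heat shock proteins, were often lower at 0.5 HAP. Of 21 co-chaperones and organelle chaperonins, 10 fell and 0 rose, with a median log2 difference of -0.27; 6 and 5 fell without 0.5 HAP replicate 1 and 2. Hop3, which links HSP70 to HSP90, had 106 and 90.7 at 0.5 HAP, against 502 and 639.8 in unpollinated pistils (5.11-fold lower, adjusted p = 1.55e-06). HSA32, a protein of acquired heat tolerance, had 259 and 239 at 0.5 HAP, against 474 and 632 in unpollinated pistils (2.13-fold lower), and ATJ1, a DnaJ protein of mitochondria, had 269.5 and 269.5 at 0.5 HAP, against 424 and 499 in unpollinated pistils. Unpollinated replicate 2 was the higher of its pair for all 3. Of 5 heat shock genes measured 2 fell, 1 rose and 2 were not called. ATHSP22.0, a small heat shock protein of the endoplasmic reticulum, had 65.8 and 78.1 at 0.5 HAP, against 1094 and 1476 in unpollinated pistils, and AT5G48570, an FK506-binding protein named FKBP65 or ROF2, had 118 and 123 at 0.5 HAP, against 882 and 1482 in unpollinated pistils. Hop3, ATHSP22.0 and AT5G48570 were within the background level at 0.5 HAP, with means at 3.5 HAP of 96.9 ± 1.29, 56.9 ± 5.19 and 105 ± 4.88. The constitutive HSP70 gene Hsp70-2 ran the other way, at 1798 and 1746 at 0.5 HAP and 1191 and 1444 in unpollinated pistils, a rise lost without either 0.5 HAP array or unpollinated replicate 1. BOB1 had 809 and 796 at 0.5 HAP, against 798 and 870.0 in unpollinated pistils (adjusted p = 0.694), and CLPB2 was within the background level on all 4 arrays. The part of RNA quality in these falls was not tested; without unpollinated replicate 2, 9 of the 21 co-chaperones and both named heat shock genes still fell.

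The 2 organelle genomes moved in opposite directions. Of 16 measured genes of the mitochondrial genome 13 fell and 1 rose, with a median log2 difference of -1.43, and 9 of them fell at least 2-fold. Of 69 genes of the plastid genome 30 rose and 1 fell, with a median of 0.35, and 12 rose at least 2-fold. In the mitochondrial genome, genes for subunits of complex I, the nad genes, fell in 7 of 8 cases with a median of -1.82, and both cox genes, for subunits of complex IV, fell. nad9 had 284 and 366 at 0.5 HAP, against 1464 and 2385 in unpollinated pistils (5.57-fold lower, adjusted p = 6.89e-06). nad4L had 85.9 and 92.0 at 0.5 HAP, against 662 and 1057 in unpollinated pistils, and cox2 had 121 and 143 at 0.5 HAP, against 962 and 2001 in unpollinated pistils. The unpollinated replicates differed widely for these genes, and the lack of overlap between the groups follows from their calls. Of the 13 genes that fell, 12 were higher in unpollinated replicate 2, the array with the high actin ratio, than in replicate 1. Without that array 12 fell and the median was -0.97, and without unpollinated replicate 1 14 fell and it was -1.76. The open reading frame orfX was the exception, at 1130.0 and 1418 at 0.5 HAP, against 473 and 892 in unpollinated pistils, and its call was lost with either 0.5 HAP array or unpollinated replicate 1 left out.

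In the plastid genome the rises covered several complexes. Of 15 ribosomal protein genes 8 rose, of 10 ndh genes of the NADH dehydrogenase-like complex 5 rose, of 5 psa genes of photosystem I 3 rose, of 6 atp genes of the ATP synthase 3 rose, and of 4 rpo genes of the plastid RNA polymerase 2 rose. Of 15 psb genes of photosystem II 4 rose and 1, psbJ, fell, and of 6 pet genes of the cytochrome b6f complex 0 passed the test, with a median log2 difference of 0.22. rpl14, a protein of the large plastid ribosomal subunit, had 1854 and 1853 at 0.5 HAP, against 537 and 749.8 in unpollinated pistils (2.87-fold, adjusted p = 1.04e-05), and rpl20 of the same subunit had 1741 and 1481 at 0.5 HAP, against 377 and 602 in unpollinated pistils (3.29-fold, SE 0.299 on the log2 scale). rps15, of the small subunit, had 1552 and 1587 at 0.5 HAP and 377 and 958 in unpollinated pistils. The unpollinated pair was wide for the 3 genes, and the rise of rps15 was lost without either 0.5 HAP array or unpollinated replicate 1. psbJ had 2944 and 2685 at 0.5 HAP, against 3573 and 3806 in unpollinated pistils (log2 -0.39). Without 0.5 HAP replicate 1 or 2 only 19 plastid genes rose in each case, and without unpollinated replicate 2 31 rose and 3 fell, with a median of 0.41. rpl14 averaged 643 ± 150.4 in unpollinated pistils, 1853 ± 0.346 at 0.5 HAP, 774 ± 39.2 at 3.5 HAP and 1607 ± 114 at 8 HAP (SD, n = 2 each), so the level at 3.5 HAP was near that before pollination.

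**Figure D3:**
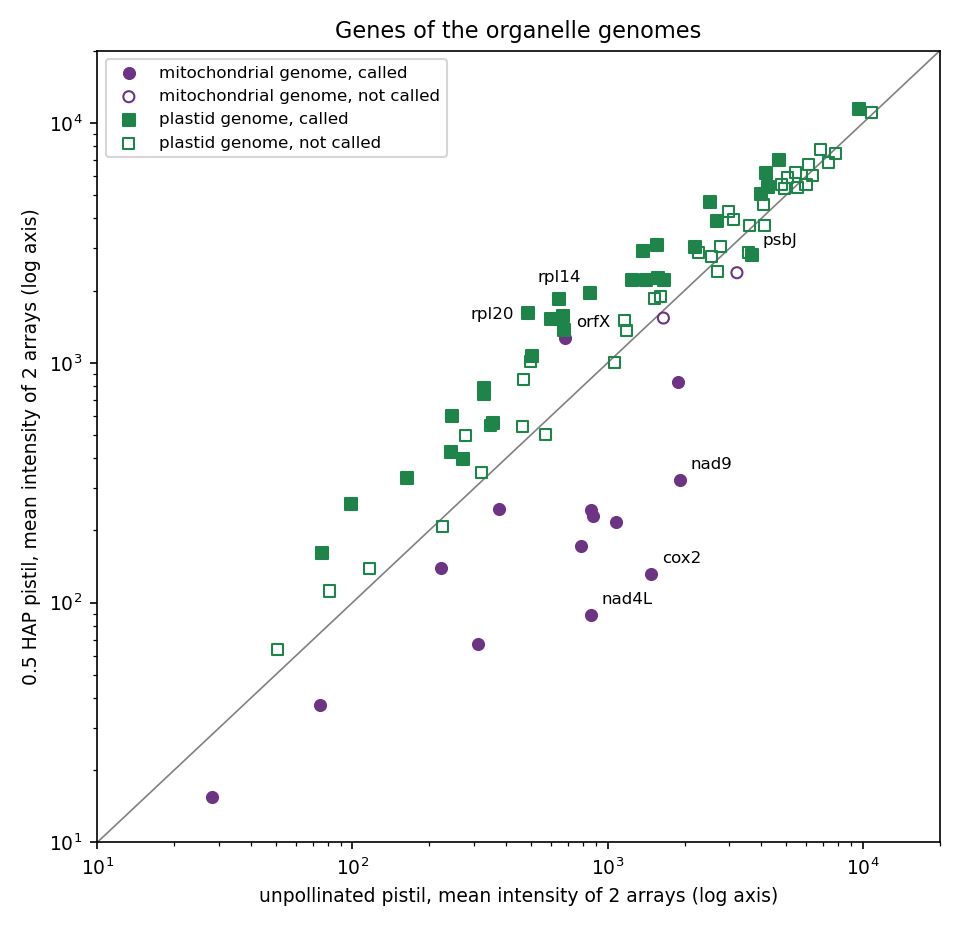
Mean intensity of each measured gene of the mitochondrial and plastid genomes at 0.5 HAP (vertical axis) against that in unpollinated pistils (horizontal axis), both on log scales, with the line of equal level; filled points passed the test. Of the 16 mitochondrial points 1 lies above the line, orfX, and most plastid points lie above it.

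Nuclear genes for the organelles were called in both directions, as were the named genes as a whole, of which 13.8% rose and 14.6% fell. Of 16 nuclear photosynthesis genes 2 rose and 2 fell (1 and 1 without 0.5 HAP replicate 1, and 1 and 2 without replicate 2), among them SBPASE, of the Calvin cycle, at 4072 and 4408 at 0.5 HAP and 3129 and 3203 in unpollinated pistils, and PGRL1B, of cyclic electron flow, at 686 and 784 at 0.5 HAP, against 1316 and 1219 in unpollinated pistils (log2 -0.78). Of 12 genes of chlorophyll, carotenoid and isoprenoid synthesis 6 rose and 1 fell, with a median log2 difference of 0.30; 3 rose without 0.5 HAP replicate 1, and 0 fell with any 1 array left out. HEMA2, which opens tetrapyrrole synthesis, had 212 and 270.3 at 0.5 HAP, against 128 and 112 in unpollinated pistils (1.88-fold). HEME2, a decarboxylase of the same path, had 1284 and 1247 at 0.5 HAP, against 869 and 601 in unpollinated pistils, and CHLI2, a magnesium chelatase subunit, had 1115 and 1103 at 0.5 HAP, against 736 and 779 in unpollinated pistils. HEMA2 was at background level before pollination, and the others were well above it. Of 11 nuclear respiration genes 5 rose and 1 fell; 2 and 3 rose and 0 fell without 0.5 HAP replicate 1 and 2, and 0 fell without unpollinated replicate 2, or 2 without unpollinated replicate 1. SDH1-1, the flavoprotein of succinate dehydrogenase, had 1710.2 and 1706 at 0.5 HAP, against 1043 and 896 in unpollinated pistils (1.75-fold, adjusted p = 9.83e-05). Of 8 genes of branched-chain amino acid breakdown, a mitochondrial route that feeds electrons to respiration, 4 rose and 0 fell, but 1 rose without either 0.5 HAP array.

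Antioxidant enzymes rose in 8 of 19 cases and fell in 0, with a median log2 difference of 0.16; 5 and 4 rose without 0.5 HAP replicate 1 and 2. GRX480, a glutaredoxin that binds TGA transcription factors, had 627 and 554 at 0.5 HAP, against 239.8 and 239 in unpollinated pistils (2.37-fold, adjusted p = 2.16e-06). GRXC1, a glutaredoxin of the cytosol, had 609 and 595 at 0.5 HAP, against 327 and 358 in unpollinated pistils (1.73-fold), and SAPX, the stromal ascorbate peroxidase, had 1149.8 and 1247 at 0.5 HAP, against 749 and 674 in unpollinated pistils (1.67-fold). The 3 genes kept their calls with each array left out. Of 5 glutaredoxins 3 rose. Of 14 glutathione transferases 1 rose and 3 fell, or 0 and 1 without either 0.5 HAP array, and 0 rose without unpollinated replicate 1. GSTU20 had 632 and 568 at 0.5 HAP, against 1119.5 and 1224 in unpollinated pistils (1.93-fold lower). Of 24 cytochrome P450 genes, oxygenases of many secondary products, 2 rose and 6 fell, and 1 rose without either 0.5 HAP array or without unpollinated replicate 2. Of the 24 genes, 14 had both group means within the background level, among them 2 of the 6 that fell. CYP71B26 had 1129 and 1049.5 at 0.5 HAP, against 1847 and 2088 in unpollinated pistils. CYP71B28 had 679 and 716 at 0.5 HAP, against 1161 and 1276 in unpollinated pistils. CYP71B22 of the same subfamily was higher, at 883 and 886 at 0.5 HAP, against 628 and 506 in unpollinated pistils.

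**Figure D4:**
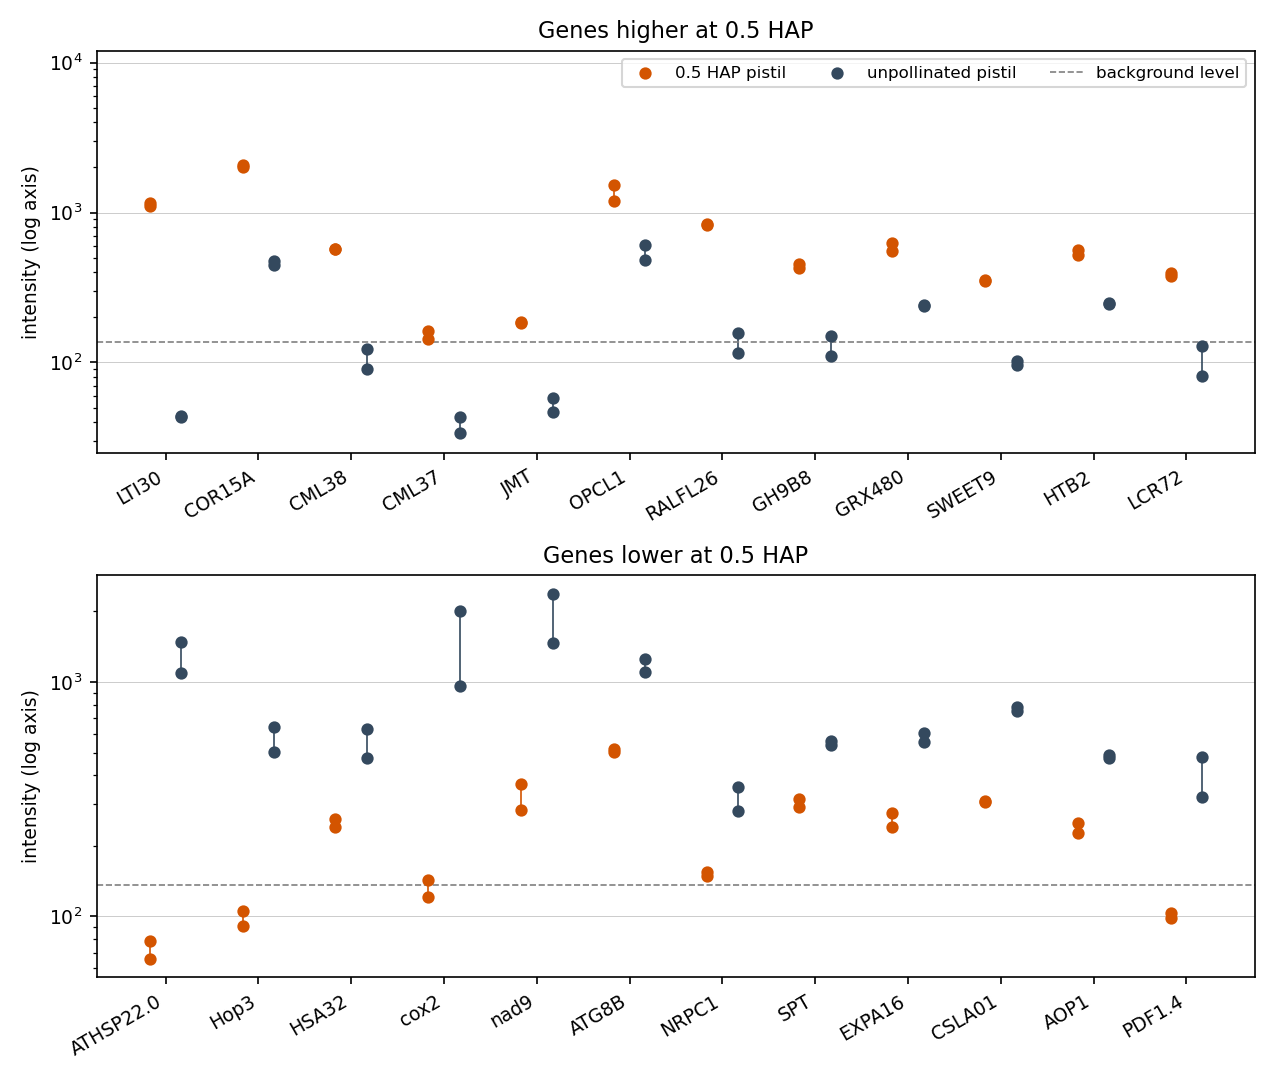
Level (linear intensity, log axis) of lead genes of the classes on each array, with pistils at 0.5 HAP left of unpollinated pistils for each gene and 1 point an array. The upper panel holds 12 genes that were higher at 0.5 HAP and the lower panel 12 that were lower, chosen among called genes whose arrays do not overlap; the dashed line is the background level.

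Histone genes rose in 5 of 8 cases, with a median log2 difference of 0.44; 2, 3 and 2 rose without 0.5 HAP replicate 1, 0.5 HAP replicate 2 and unpollinated replicate 1. HTB2, a histone H2B, had 517 and 565 at 0.5 HAP, against 250.1 and 247 in unpollinated pistils (2.11-fold, adjusted p = 0.000298). HTB11, another H2B gene, had 980.0 and 938 at 0.5 HAP, against 619.8 and 738 in unpollinated pistils, and HTB1 had 936 and 942 at 0.5 HAP, against 637 and 699.6 in unpollinated pistils. Both calls were lost with some arrays left out. Cell cycle and replication genes did not move with them: of 11, 1 rose and 1 fell, and at most 2 did either way with 1 unpollinated array left out. The cyclin-dependent kinase gene cdc2cAt had 321 and 321 at 0.5 HAP, against 97.5 and 124 in unpollinated pistils (2.67-fold), and SIM, an inhibitor of such kinases, had 324 and 309.5 at 0.5 HAP, against 479 and 555 in unpollinated pistils (log2 -0.68).

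Some genes for the RNA machinery fell. Of 12 RNA polymerase subunits 4 fell and 0 rose, with a median log2 difference of -0.26; 2 fell without 0.5 HAP replicate 2 and 8 without unpollinated replicate 1. NRPC1, the largest subunit of RNA polymerase III, had 155 and 148 at 0.5 HAP, against 280.2 and 357 in unpollinated pistils (1.98-fold lower, adjusted p = 4.24e-05). NRPB12, a small subunit shared between polymerases, had 1492 and 1412 at 0.5 HAP and 2057 and 1998 in unpollinated pistils. Of 12 splicing genes 4 fell and 0 rose, and of 6 RNA helicases and turnover genes 4 fell and 0 rose, with medians of -0.21 and -0.52. PRP39-2, a protein of the U1 particle, had 116 and 126 at 0.5 HAP, against 191 and 204 in unpollinated pistils (1.56-fold lower). ATU2AF65A, which recognises the 3' splice site, had 1921 and 1858 at 0.5 HAP, against 2509.5 and 2563 in unpollinated pistils, and SE, a zinc finger protein of microRNA processing, had 323 and 294 at 0.5 HAP, against 476 and 424 in unpollinated pistils (log2 -0.52). PRP39-2 was within the background level at 0.5 HAP, and the others lay above it in both groups. The 3 lists are short, and 14.6% of all named genes fell.

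Among transcription factors, the bHLH family leaned to lower levels. Of 17 measured 8 fell and 1 rose, with a median log2 difference of -0.19, and 4 fell without either 0.5 HAP array, while 3 rose without unpollinated replicate 1. ATMYC1, a factor of epidermal cell fate, had 158 and 143 at 0.5 HAP, against 276 and 311 in unpollinated pistils (1.86-fold lower), and ALC, a factor of fruit valve margins related to SPT, had 425 and 465 at 0.5 HAP, against 840.0 and 739 in unpollinated pistils (1.75-fold lower). bHLH115 was higher, at 877 and 883 at 0.5 HAP and 615 and 672 in unpollinated pistils. In 40 MADS factors few calls were made and 26 of the genes were within background: 1 rose, or 4 without unpollinated replicate 2 and 0 without either replicate 1, and 4 fell, or 2 without 0.5 HAP replicate 2. Of 24 bZIP factors 3 rose and 5 fell; 1 and 2 fell without 0.5 HAP replicate 1 and 2. BZIP60, a factor of the unfolded protein response, had 1561 and 1635 at 0.5 HAP, against 1245 and 1029 in unpollinated pistils (1.41-fold).

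Most of the autophagy genes measured belonged to the ATG8 family, so the rest of the pathway was hardly covered. Of 11 measured 6 fell, 5 were not called and 0 rose, with a median log2 difference of -0.32, and the 6 were all among the 9 genes of the ATG8 family, the small proteins that are joined to lipid on the growing autophagosome. With 0.5 HAP replicate 1 left out 2 genes of the class fell, and with unpollinated replicate 2 left out 3 fell. ATG8B had 504 and 516 at 0.5 HAP, against 1104 and 1251 in unpollinated pistils (2.26-fold lower, adjusted p = 4.54e-06), and ATG8H had 447 and 469 at 0.5 HAP, against 671 and 657 in unpollinated pistils (1.43-fold lower). ATG8G had 377 and 371 at 0.5 HAP and 462 and 537 in unpollinated pistils, a call lost without either 0.5 HAP array. ATG8B and ATG8H kept theirs in each case. ATG8B averaged 1178 ± 104 in unpollinated pistils, 510.1 ± 8.34 at 0.5 HAP, 682 ± 20.7 at 3.5 HAP and 445 ± 33.3 at 8 HAP (SD, n = 2 each). Of 15 ESCRT and VPS proteins, which sort membrane proteins into multivesicular bodies, 6 rose and 2 fell, but 2 rose and 0 fell without 0.5 HAP replicate 1, 1 fell without replicate 2 and 0 fell without unpollinated replicate 2. VPS2.1 had 1199 and 1230.4 at 0.5 HAP, against 727 and 731 in unpollinated pistils (1.65-fold), and ELC, of the first ESCRT complex, had 997 and 957 at 0.5 HAP, against 671 and 544 in unpollinated pistils.

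Sugar transporters and invertases rose in 6 of 20 cases and fell in 1, and 3 rose without either 0.5 HAP array and 2 fell without unpollinated replicate 2. The members named are SWEET proteins, which let sugars leave cells. SWEET9, known for sucrose export in nectaries, had 349 and 352 at 0.5 HAP, against 96.2 and 102 in unpollinated pistils (3.19-fold, log2 1.67, SE 0.205). SWEET3 had 485 and 497 at 0.5 HAP, against 191 and 242 in unpollinated pistils (2.19-fold), and SWEET10 had 680.3 and 649.5 at 0.5 HAP, against 458 and 338 in unpollinated pistils. SWEET7 was lower, at 172 and 170.5 at 0.5 HAP and 277 and 289.9 in unpollinated pistils. SWEET9 was at background level before pollination, and the other 3 were above it in both groups. SWEET9 averaged 99.0 ± 4.01 in unpollinated pistils, 351 ± 2.18 at 0.5 HAP, 141 ± 66.2 at 3.5 HAP and 92.7 ± 1.59 at 8 HAP (SD, n = 2 each), and so was near background again by the second time.

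Genes of glucosinolates, sulphur-rich defence compounds, were few in the tables. In the list of synthesis genes 3 were measured, below the 5 set for classes other than cell type markers. Of these synthesis genes 2 fell and 1 was not called. UGT74B1, GTR1, GTR2 and APS4 come from other lists and were set beside them after their values were seen. BCAT4, which starts the lengthening of methionine, had 477 and 495 at 0.5 HAP, against 3899.9 and 4085 in unpollinated pistils. The glycosyltransferase UGT74B1, which adds the glucose of the glucosinolate core, had 1245 and 1257 at 0.5 HAP, against 2233 and 1995 in unpollinated pistils (log2 -0.75, adjusted p = 8.91e-05), and AOP1, of a family that modifies the side chain, had 228 and 250.1 at 0.5 HAP, against 486 and 473 in unpollinated pistils (log2 -0.96). All 3 lay above background in both groups. AOP3 of the same family was at 261 and 269.9 at 0.5 HAP and 255 and 245 in unpollinated pistils (adjusted p = 0.535). The transporters GTR1 and GTR2, which import glucosinolates into cells, were higher, GTR1 at 3793 and 3904 at 0.5 HAP, against 2599.8 and 1888 in unpollinated pistils (1.73-fold), and GTR2 at 1213 and 1070.1 at 0.5 HAP, against 691 and 566 in unpollinated pistils (1.80-fold). APS4, an ATP sulphurylase that feeds sulphate assimilation, had 1164 and 1195 at 0.5 HAP, against 1842 and 1979.9 in unpollinated pistils. Of all 51 UDP-glycosyltransferases measured 4 rose and 6 fell, and 2 rose without 0.5 HAP replicate 2. UF3GT, of anthocyanin synthesis, had 421 and 395 at 0.5 HAP, against 123 and 141 in unpollinated pistils (2.88-fold), and UGT76E12 had 276 and 301 at 0.5 HAP, against 92.7 and 76.5 in unpollinated pistils (3.04-fold). Both were at background level before pollination. The shares called in the glycosyltransferase family were no higher than among all named genes, of which 13.8% rose and 14.6% fell.

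Defence peptides and pathogenesis-related proteins moved both ways. Of 19 genes 4 rose and 8 fell, with a median log2 difference of -0.15, and 5 fell without 0.5 HAP replicate 2. Of the 19, 8 had both group means within the background level, among them 2 of the 8 that fell. PDF1.4, a plant defensin, had 103 and 98.1 at 0.5 HAP, against 324 and 478 in unpollinated pistils (3.51-fold lower, adjusted p = 1.24e-05 by limma). OSM34, an osmotin-like protein, had 92.1 and 108 at 0.5 HAP, against 257 and 212 in unpollinated pistils (2.15-fold lower), and the cysteine-rich peptide LCR24 had 160.1 and 162 at 0.5 HAP, against 340.1 and 367 in unpollinated pistils (2.08-fold lower). LCR72 of the same peptide group was higher, at 379 and 396 at 0.5 HAP, against 80.7 and 129 in unpollinated pistils (3.41-fold). SAG101, a partner of EDS1 in resistance signalling, was also higher, at 173 and 163 at 0.5 HAP, against 92.1 and 80.5 in unpollinated pistils. PDF1.4 and OSM34 were within the background level at 0.5 HAP, and LCR72 and SAG101 were within it in unpollinated pistils.

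Proteases and their inhibitors rose in 12 of 46 cases and fell in 6. scpl38, a serine carboxypeptidase-like gene, had 298 and 309 at 0.5 HAP, against 55.5 and 62.1 in unpollinated pistils (4.28-fold, adjusted p = 7.64e-08), from background level. The subtilase SBT4.13 had 222 and 224 at 0.5 HAP, against 68.8 and 66.4 in unpollinated pistils (2.86-fold), also from background level. scpl25 was lower, at 994 and 1094 at 0.5 HAP and 2174 and 2184 in unpollinated pistils. AT1G72290, on the list of inhibitors by its locus, had 2783 and 2849.5 at 0.5 HAP and 261 and 271 in unpollinated pistils. Of the vacuolar processing enzymes, proteases that mature vacuolar proteins and act in cell death, DELTA-VPE had 1253 and 1389.7 at 0.5 HAP, against 631 and 703 in unpollinated pistils (1.96-fold), and BETA-VPE had 261 and 260.5 at 0.5 HAP, against 119.9 and 166 in unpollinated pistils (1.76-fold). Both rose with each array left out. The ubiquitin-conjugating enzyme UBC28 had 4822 and 4837 at 0.5 HAP, against 7724 and 7930.3 in unpollinated pistils (log2 -0.69).

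Many of the most changed genes carry only a locus code in the tables used, so no function is given for them. Of the 25 largest rises 16 had an unpollinated mean within the background level, and of the 15 largest falls 8 had a 0.5 HAP mean within it. Among the rises, AT5G47000 had 564 and 566 at 0.5 HAP, against 64.1 and 76.0 in unpollinated pistils, AT3G01830 had 283 and 279.9 at 0.5 HAP, against 25.7 and 37.9 in unpollinated pistils, and AT5G03350 had 949.9 and 952 at 0.5 HAP, against 124 and 160.5 in unpollinated pistils. At 3.5 HAP the last pair averaged 50.5 ± 4.92 and 444 ± 112 (SD, n = 2). Among the falls, 4 were loci whose codes begin with AT2G07 and 3 were genes of the mitochondrial genome. As background, chromosome 2 of Columbia carries a large copy of mitochondrial DNA, and 3 of the 4 loci lie on chromosome 2 in the gene table. AT2G07741 had 678 and 639.6 at 0.5 HAP, against 3297 and 4104 in unpollinated pistils, and AT2G07707 had 446 and 433 at 0.5 HAP, against 2098 and 2941 in unpollinated pistils. Whether such a probe set reads the nuclear or the mitochondrial copy cannot be told apart. AT4G19430 had 449 and 447 at 0.5 HAP, against 2922 and 3171 in unpollinated pistils (6.59-fold lower), and AT1G72660 had 68.7 and 63.3 at 0.5 HAP, against 401 and 694 in unpollinated pistils (6.64-fold lower).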

How the data were processed

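RNA from pools of pistils or ovules was amplified in 2 rounds, labelled with biotin and hybridised to 10 one-colour arrays of the Affymetrix type, per the labels' protocols. Linear intensity per probe set and array is what the authors deposited. MAS5 is named in the submitters' processing notes without a version or a role, and the close medians point to a common scaling of unknown method. All columns were used. Array number limits the precision.

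GEO's annotation of the platform, with symbols updated from a RefSeq gene list for TAIR10.1, named the probe sets: 13512 named 1 gene, 503 several and 8730 none, so many well-known genes are not measured here under a name. Only 1557 of 13355 genes have a name beyond a locus code, and the others are given no function beyond the list that holds their locus, except AT5G48570, named by its synonyms in the gene list. The 64 control probe sets and 1 with no value were left out.

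The test used log2(value + 16) of every probe set. The model was fitted with limma 3.58.1 (R 4.3.3) to all 5 groups (eBayes with an intensity trend, 5 residual and 6.11 prior degrees of freedom), and p-values were adjusted by Benjamini-Hochberg over 22745 probe sets at 0.05. The fit was tested on simulated data. Genes were placed in 100 classes by symbol. Classes with at least 5 measured genes, or any number for cell type markers, are counted by their brightest probe set. Glucosinolate synthesis, with 3 measured genes, is counted as an exception. A rule set which genes could be named. It took up to 3 called members of a class in each direction with the largest difference, groups apart and the higher mean above background. It also took the 25 largest rises, the 15 largest falls and all markers. The text gives only some of these genes, and not every marker. Other members named were picked after their values were seen. The members, classes and lists were chosen with earlier results of these data known. Alternatives were other normalizations, pseudocounts, filters, sample sets, a replicate block, no trend, means over a gene's probe sets, and each array left out. Counts used pandas 2.3.3 under Python 3.11.15, and plots used matplotlib 3.10.9. Promoter motifs were not analysed here.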

Additional observations from a re-analysis of the deposited data

Results flagged for a closer look

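The levels at 0.5 HAP were set against those at 3.5 HAP in the same limma fit. Examples are given here of genes named in the report whose step was at least 2-fold and passed the Benjamini-Hochberg threshold. Values are log2 differences, 3.5 HAP minus 0.5 HAP. This step shares the 0.5 HAP arrays with the main comparison. No explanation of these steps was tested.

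Among genes that rose at 0.5 HAP, AT3G01830 fell again by 3.5 HAP (-2.16), as did CML38 (-1.69), AT3G12000 (-1.67), LTI30 (-1.54), XTH18 (-1.47), OPCL1 (-1.30), SWEET9 (-1.29) and AT5G03350 (-1.09). Among organelle genes the same held for orfX (-2.51), rpl20 (-1.82), rps15 (-1.33) and rpl14 (-1.24). The replicates of some of these were wide: at 3.5 HAP, rpl20 averaged 479 ± 260.3 and SWEET9 averaged 141 ± 66.2 (SD, n = 2), with adjusted p of 0.00266 and 0.0022 by limma. AT2G07707, which had fallen at 0.5 HAP, was lower still at 3.5 HAP (-1.0).

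Genes that were lower at 0.5 HAP and higher again at 3.5 HAP were EXPA8 (1.23), JRG21 (1.2) and CSLA01 (1.06). Genes that had risen at 0.5 HAP and rose further were scpl38 (1.44), UF3GT (1.23), ANX2 (1.09) and AT5G47000 (1.02).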

How the results depend on the processing

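The count of probe sets changed at 0.5 HAP was 6880 as reported and ran from 3723 to 7318 with 1 array left out, with 2016 to 3388 higher and 1707 to 3930 lower. It was 7258 after quantile normalization, 5811 with arrays centred on 8 reference genes, 6864 and 6904 with 1 or 64 added in place of 16, 5325 without the dimmest 40%, 5077 with only the 2 groups in the fit, 7238 with only pistil groups and 6803 without the intensity trend. The share of changed probe sets that were higher, 51.4%, was 48.0% after quantile normalization, 55.2% after centring and 46.3% or 56.1% without unpollinated replicate 1 or 2, so which direction prevailed depended on the processing. With 1 array left out, the genes that rose numbered 19 to 31 in the plastid genome, 4 to 8 among antioxidant enzymes, 3 to 6 among sugar transporters and invertases, 3 to 6 in chlorophyll, carotenoid and isoprenoid synthesis, 2 to 6 among ESCRT and VPS proteins, 2 to 5 among histones and 1 to 4 in branched-chain amino acid breakdown. Those that fell numbered 5 to 9 among co-chaperones, 4 to 6 among bHLH factors, 2 to 5 in autophagy and 2 to 8 among RNA polymerase subunits. The cause of these shifts was not tested. Of 280 called genes named by the rule, 175 kept their call in all 10 settings tried on them, 105 lost it in at least 1 and 0 changed direction. Most losses came from leaving out 0.5 HAP replicate 1 (91) or 2 (78); such a fit has 1 array in a group, assumed to vary like the other groups.

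No pairing by replicate number was seen: over all probe sets, deviations of same-numbered arrays of the 2 groups correlated at -0.022. This value cannot show whether same-numbered pools were handled together. With the replicate block the count was 6362, and 17 of the named genes lost their call. With 2 arrays a group, and 28.7% of probe sets within the background level, small differences of dim genes are beyond what these arrays resolve.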

Other observations

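A few genes outside the classes described so far changed at 0.5 HAP and kept their calls by limma with each of the 4 arrays left out. MTP11, a manganese transporter, had 1192 and 1149.8 at 0.5 HAP, against 593 and 672 in unpollinated pistils (1.83-fold). 4CL8, of a family that activates phenolic acids for lignin, had 336 and 369 at 0.5 HAP, against 159 and 196 in unpollinated pistils (1.91-fold). Of the hormone genes, the cytokinin response regulator RR16 had 619.7 and 570.3 at 0.5 HAP, against 388 and 412 in unpollinated pistils, while the brassinosteroid receptor homologue BRL1 had 122 and 114 at 0.5 HAP, against 159 and 163 in unpollinated pistils. RR16 rose and lay above background in both groups, and BRL1 fell to within the background level.

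Factors of organelle RNA moved in both directions. PPR596, a pentatricopeptide repeat protein of mitochondria, had 652 and 611 at 0.5 HAP, against 1082 and 1239 in unpollinated pistils (log2 -0.86), and MEF8S, an editing factor of mitochondria, had 124 and 125 at 0.5 HAP, against 224 and 317 in unpollinated pistils (log2 -1.01). Of 18 measured pentatricopeptide repeat genes 5 fell and 3 rose, but 0 rose without either 0.5 HAP array, and 3 fell without 0.5 HAP replicate 2 or unpollinated replicate 2. Of 22 beta-glucosidases 3 rose and 3 fell, near the shares among all named genes, of which 13.8% rose and 14.6% fell. BGLU33 had 485 and 459.5 at 0.5 HAP, against 289 and 224 in unpollinated pistils (1.80-fold), and BGLU42 had 476 and 503 at 0.5 HAP, against 293 and 291 in unpollinated pistils (1.64-fold). In this family 0 fell without either 0.5 HAP array or without unpollinated replicate 1.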
